A study of Mus musculus with 4 samples.

Results

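The genes described here encode 4 families of RNA-splicing proteins. Among them are the SR proteins (Srsf genes) and the heterogeneous nuclear ribonucleoproteins or hnRNPs (Hnrnp genes). The others are proteins of the small nuclear ribonucleoproteins or snRNPs (Snrp genes), and the subunits of splicing factors SF3A and SF3B (Sf3 genes). The genes were chosen by name alone, as every probe set whose array annotation gave a single symbol beginning with Srsf, Hnrnp, Snrp or Sf3. This took 115 of 22690 probe sets, which stand for 44 of 12394 named genes: 9 SR genes with 28 probe sets, 18 hnRNP genes with 50, 8 snRNP genes with 15, and 9 SF3A and SF3B genes with 22. A further 14 probe sets list a gene of these families together with other symbols, and were left out because their signal cannot be assigned to 1 gene.

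Myogenic cells were taken directly, with no culture, from the hind limb of C57BL/6 mice, which were 8 to 12 weeks old, after the muscle had been injected with cardiotoxin, a venom protein that kills muscle fibres and sets off their regeneration. The 4 groups are the cells of day 2, day 3, day 5 and day 14 after injury, each read on 1 Affymetrix mouse 430A array, and the labels name SM/C-2.6, an antibody that binds muscle satellite cells. All groups carry the injury, no uninjured control was analysed here, and the sources used here do not give the number of animals behind an array. No day has a replicate, so no difference below has a test. A call of higher or lower rests on size alone, a difference of 2-fold or more between 2 arrays.

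Splicing removes introns from the transcripts of a gene and joins the exons. The U1 snRNP binds the start of an intron and the U2 snRNP, with SF3A and SF3B, binds the branch site near its end. Each spliceosomal snRNA except U6 carries a ring of Sm proteins, which the SMN complex loads onto it. SR proteins bind exons and mostly favour their inclusion, while many hnRNPs bind introns or exons and favour skipping, so that their balance sets which exons are kept. In muscle, many contractile and membrane proteins change isoform by splicing as myoblasts differentiate.

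Promoter sequences of several of these genes are shown here because their signals were lower together on the later arrays. The RefSeq promoter table (assembly GRCm38.p6) held 39 of the 44 genes, and in each window the 250 bases before the annotated start were searched on both strands. Of the 12 genes called lower on day 14 than on day 2 (values below), 9 had a window. The letters CCGGAA (on the other strand TTCCGG), the core of sites bound by ETS transcription factors, occurred in 21 of the 39 windows, or 53.8%, against 15.2% of the 17492 windows of protein-coding genes and 12.2% of all 27025 windows. They occurred in 8 of the 9 windows of genes called lower and in 13 of the other 30. The GC box GGGCGG (on the other strand CCGCCC) occurred in 66.7% of the 39 windows and in 42.7% of the protein-coding windows, and CCAAT (on the other strand ATTGG) in 46.2% and 36.3%. The GC box stood in 7 of the 9 windows of genes called lower and in 19 of the other 30, and CCAAT in 2 of the 9 and 16 of the 30. The E2F-type letters TTCCCGC (on the other strand GCGGGAA) stood in 5 windows, or 12.8%, against 4.95% of the protein-coding windows. CACGTG was found in 1 window, TATAAA (on the other strand TTTATA) in 4, and GCGCATGC (on the other strand GCATGCGC) in none, against 6.64%, 12.4% and 2.99% of the protein-coding windows. Median GC content was 60.4% in the 39 windows, 55.2% in the protein-coding windows and 52% in all windows, and the motif shares were not adjusted for it. A match to these letters is a description and shows no binding.
The windows below run 5′ to 3′ on the strand of the gene, with matches to the searched motifs in capitals. Sf3a3 (chr4:124714611-124714860, plus strand) is shown as the gene with the lowest day 14 to day 2 ratio, and its capitals are ETS cores. Sf3b6 (chr12:4817358-4817607, plus strand) has GC boxes and ETS cores. Snrpd3 (chr10:75517792-75518041, plus strand) has CCAAT boxes, a GC box that overlaps the first of them, and ETS cores. Srsf1 (chr11:88047123-88047372, plus strand) has an ETS core, a GC box and an E2F-type match. Hnrnpk (chr13:58402118-58402367, minus strand) was not called and has CCAAT boxes but no ETS core. The windows shown do not stand for all members. Snrpa1, not shown, was called lower and has no ETS core, while Srsf5, not shown, was not called and has 2.
Sf3a3: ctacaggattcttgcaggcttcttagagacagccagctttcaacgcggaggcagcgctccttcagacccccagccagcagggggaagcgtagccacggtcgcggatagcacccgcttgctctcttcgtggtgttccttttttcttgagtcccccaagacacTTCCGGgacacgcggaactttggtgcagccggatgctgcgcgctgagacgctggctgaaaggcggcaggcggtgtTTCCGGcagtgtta
Sf3b6: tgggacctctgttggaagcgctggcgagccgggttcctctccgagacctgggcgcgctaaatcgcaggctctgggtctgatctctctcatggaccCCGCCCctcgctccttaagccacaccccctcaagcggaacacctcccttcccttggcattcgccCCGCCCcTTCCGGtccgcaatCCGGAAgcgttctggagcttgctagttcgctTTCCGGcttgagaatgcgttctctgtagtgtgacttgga
Snrpd3: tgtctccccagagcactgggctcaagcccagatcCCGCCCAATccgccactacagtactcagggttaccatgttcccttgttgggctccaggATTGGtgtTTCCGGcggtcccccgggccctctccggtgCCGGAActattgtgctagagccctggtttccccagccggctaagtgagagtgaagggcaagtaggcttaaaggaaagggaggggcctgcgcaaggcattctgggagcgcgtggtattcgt
Srsf1: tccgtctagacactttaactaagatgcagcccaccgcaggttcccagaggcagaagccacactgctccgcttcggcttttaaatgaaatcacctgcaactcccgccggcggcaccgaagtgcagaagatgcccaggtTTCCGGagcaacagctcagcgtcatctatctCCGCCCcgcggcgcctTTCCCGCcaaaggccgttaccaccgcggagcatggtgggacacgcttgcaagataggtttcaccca
Hnrnpk: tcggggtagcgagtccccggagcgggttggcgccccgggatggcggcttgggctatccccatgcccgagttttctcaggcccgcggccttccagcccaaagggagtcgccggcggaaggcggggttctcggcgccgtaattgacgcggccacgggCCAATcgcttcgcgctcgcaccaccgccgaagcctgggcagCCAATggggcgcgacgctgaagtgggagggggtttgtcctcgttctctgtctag

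Signals are the deposited array intensities after all arrays were brought to the same trimmed mean. Their arbitrary units can be compared between days for a probe set but not between probe sets. Scaled values under 43.0, the median of all of them, were set to that floor. A gene with several probe sets is represented by the one with the highest mean log2 signal, and 30 of the 44 genes have several. By this reading 43 of the 44 genes were above the floor on all 4 arrays, against 5916 of the 12394 named genes. The exception was Snrpn, whose protein SmN replaces SmB in neurons and whose gene is imprinted: its single probe set read 1.10, 13.1, 3.94 and 7.52 on days 2, 3, 5 and 14, under the floor throughout. Another 4 probe sets list Snrpn together with Snurf, a gene of the same transcript, and were left out although 3 of them were above the floor on all 4 arrays, so the level of Snrpn is not settled here. Of the 115 probe sets, 7 were under the floor on all 4 arrays.

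The splicing genes as a whole had their highest signal early. The summed signal of the 44 genes was 81386, 71987, 56875 and 56596 on days 2, 3, 5 and 14. Of the 43 measured genes, 27 (62.8%) had their highest signal on day 2, against 26.9% of all measured genes, and 19 (44.2%) their lowest on day 14, against 25.5%. Day 3 was the highest array of 7 genes (16.3%, against 16.7% of all), day 5 of 4 (9.30%, against 20.5%) and day 14 of 5 (11.6%, against 35.9%). Only 3 genes (6.98%) were lowest on day 2, where 47.4% of all genes were lowest, while 8 (18.6%, against 13.3%) were lowest on day 3 and 13 (30.2%, against 13.8%) on day 5. A gene at the floor on several arrays counts as lowest on the earliest of them. On day 2, 6258 of the 7930 measured genes were above the floor, while the 43 splicing genes were above it on every array. The all-gene shares of lowest arrays are therefore not matched to these genes in signal. In 12 genes (27.9%, against 15.1% of all 7930 measured genes) no array of the representative probe set read higher than the one before it. These were Srsf1, Srsf2, Srsf11, Hnrnpa1, Hnrnpd, Hnrnpll, Hnrnpm, Snrpb, Sf3a1, Sf3a3, Sf3b3 and Sf3b5. Other probe sets of Srsf1, Srsf2, Srsf11, Hnrnpa1 and Sf3a1 did rise at some step, and those of Hnrnpll and Sf3a3 did not. The rest have a single measured probe set. Steps between arrays at the floor count as no rise in the all-gene share.

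**Figure D1:**
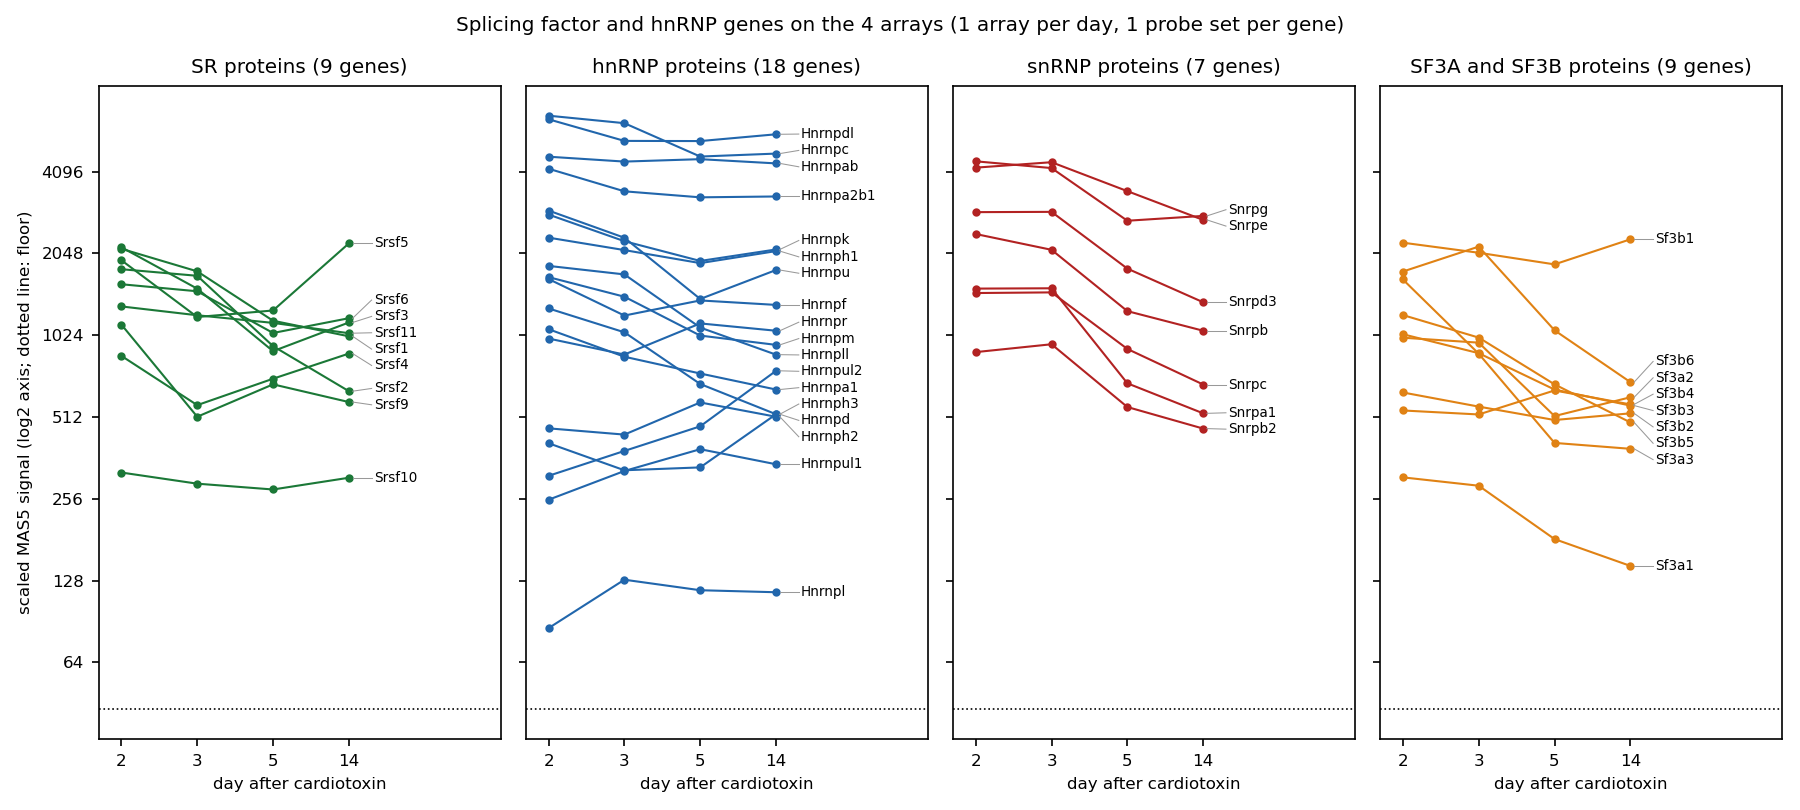
Scaled MAS5 signal (log2 axis, arbitrary units) of the representative probe set of each of 43 genes on the arrays of days 2, 3, 5 and 14 after cardiotoxin, 1 array per day, in a panel per family; the dotted line is the floor of 43.0. Each snRNP gene keeps a similar signal on days 2 and 3 and is lower on days 5 and 14, while the hnRNP panel holds level lines (Hnrnpab), lower later signals (Hnrnpd) and higher ones (Hnrnpul2).

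Other features of the arrays moved with day as well. As a check of the labelled cell type, all 10 myogenic markers were above the floor on days 3, 5 and 14 and 9 of them on day 2. The exception on day 2 was Pax7, at 35.7. Their summed signal was 8479, 15897, 13736 and 12931 on days 2, 3, 5 and 14. Of the 10 myogenic markers, 6 were called higher and 2 lower on day 14 than on day 2. The summed signal of the 9 named proliferation markers (Mki67 among them) was 19153, 15011, 6954 and 5095 on days 2, 3, 5 and 14. The sum of the splicing genes was also lower on day 5 than on day 2, but it was nearly level between days 5 and 14 (56875 and 56596). Summed macrophage markers (12 named) read 359, 1302, 3868 and 3321, and summed fibroblast markers (11 named) 3646, 11431, 32255 and 34166. Of 11 measured macrophage markers, 8 were called higher on day 14 than on day 2, among them Lyz1 (88.3, 510.3, 1980.0 and 1438) and Ctss (46.8, 180.4, 482 and 529.5), while Itgam was under the floor on all arrays. Of 11 measured fibroblast markers, 10 were called higher on day 14 than on day 2. Summed endothelial markers (10 named) read 111, 163, 280.1 and 697. Of 5 measured, Tek, Esam and Vwf were called higher on day 14 than on day 2, and another 5, Pecam1 and Cdh5 among them, were under the floor on all arrays. None of the 8 named lymphocyte markers was above the floor on any array. The 3′ to 5′ signal ratio of the Gapdh control probes, a sign of RNA length, was 2.17, 1.88, 2.87 and 2.84, and that of the b-Actin probes was 1.80, 2.20, 2.19 and 2.14. The part of these features in the results below was not tested, and in bulk RNA fewer cells of a type and less RNA per cell cannot be told apart.

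Between the first and last arrays, splicing genes were more often lower than higher. On day 14, 12 of the 43 measured genes (27.9%) were called lower than on day 2, against 14.8% of all measured genes, and 1 was called higher, against 22.8%. Their median log2 ratio was -0.64, while that of all measured genes was 0.20, and 33 of the 43 ratios (76.7%) were below 0, against 41.5% of all. Among genes above the floor on all 4 arrays, a closer match in signal, 17.6% were called lower and 18.6% higher, with a median of 0.02. The count rests on the choice of probe set, since the mean over all probe sets of a gene gave 7 called lower (16.3%, against 11.4% of all), a median of -0.33 and none called higher. That mean takes in probe sets under the floor on all arrays, which draw a ratio towards level. Sf3b5, Sf3b6 and Snrpd3, among the genes that lost the call, each have such a set. The count also rests on scaling: quantile normalization gave 8 called lower (18.6%), close to the 16.8% of all measured genes. Called lower under each of the 7 other ways of scaling, flooring or choosing probe sets were Hnrnpd, Snrpa1, Snrpb and Sf3a3. Hnrnpd and Snrpb have only 1 probe set each, so the settings on probe set choice could not change their calls.

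**Figure D2:**
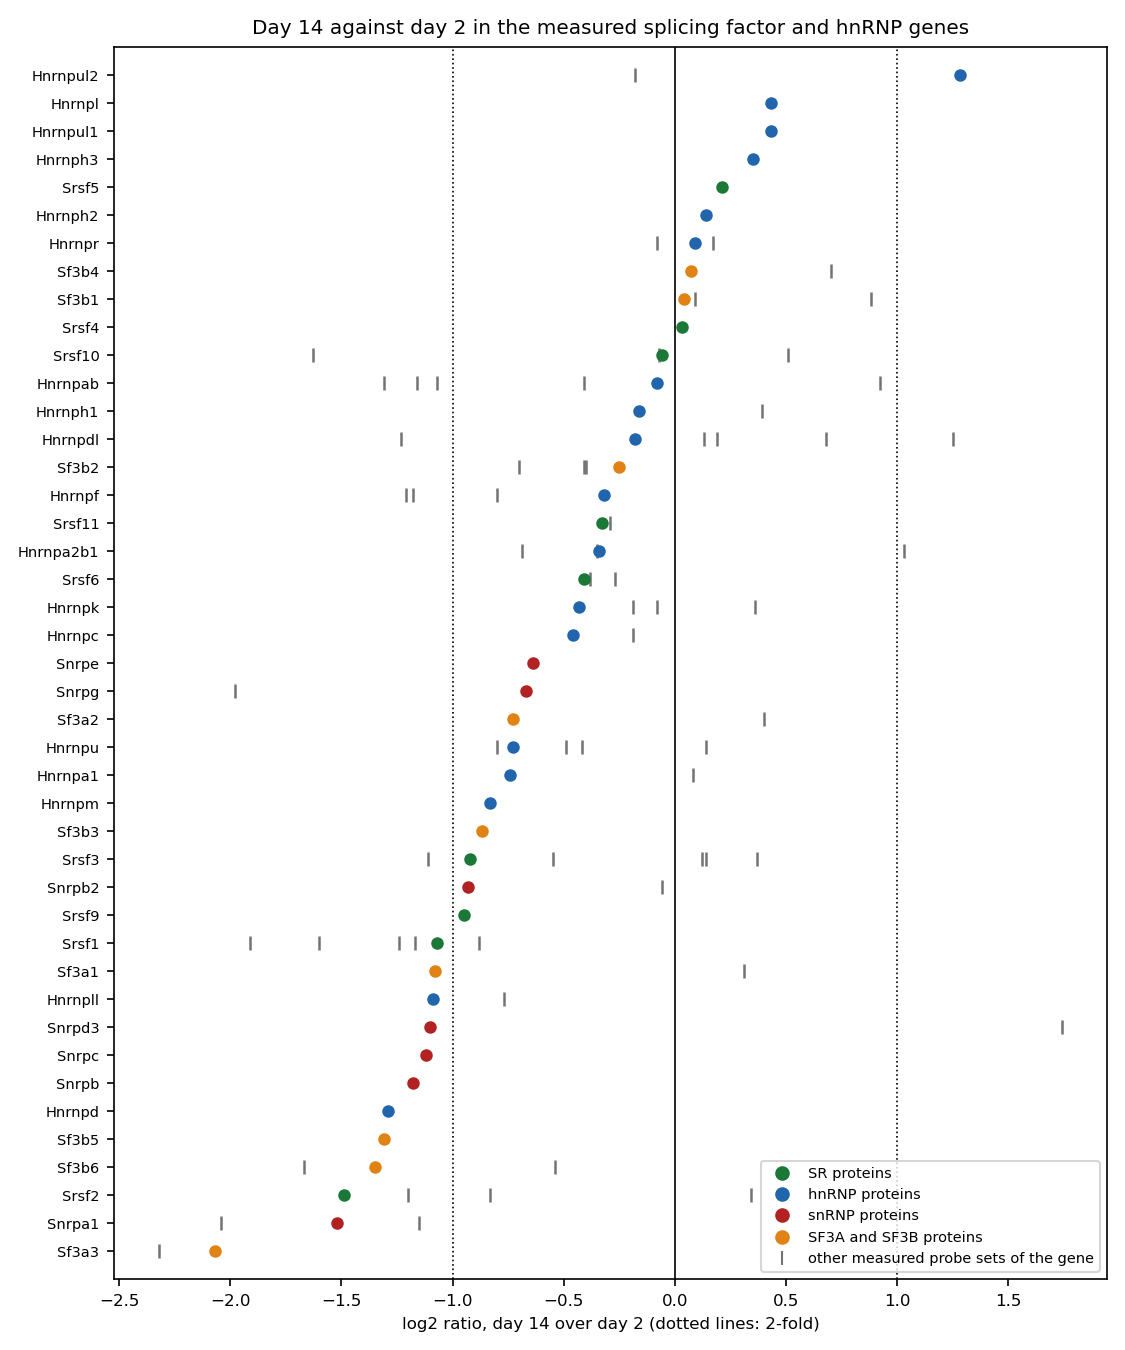
Log2 ratio of day 14 over day 2 (horizontal axis) for the 43 measured genes, ordered by ratio and coloured by family; grey ticks are the other measured probe sets of the same gene, at their bound where 1 array was at the floor, and dotted lines mark 2-fold. Of the 43 genes, 12 lie left of the lower line, from Srsf1 at -1.07 to Sf3a3 at -2.07, and Hnrnpul2 lies right of the upper line at 1.28.

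The snRNP proteins had the lowest family median. On day 14, 4 of 7 measured snRNP genes were called lower than on day 2: Snrpa1, Snrpb, Snrpc and Snrpd3. This is 57.1%, against 14.8% of all measured genes, and none was called higher, against 22.8%. All 7 were below day 2, with a median log2 ratio of -1.10. Under the 7 other settings this median ran from -1.15 to -0.94, below 0 in each. At the representative probe sets, the course of these genes had a step between days 3 and 5. The median was 0.00 for day 3 against day 2 (-0.18 with the values as deposited). It was -0.69 at the next step, from day 3 to day 5, and -0.35 at the last. The highest array was day 3 in 5 of the 7 genes, and the lowest was day 14 in 6. The lead of day 3 over day 2 was at most 0.10 log2. With the values as deposited the median moved by more than that, so which of these 2 days was highest rests on scaling.

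Snrpa1, a protein of the U2 snRNP, read 1519, 1523, 681 and 528 on days 2, 3, 5 and 14. This representative probe set was level between days 2 and 3, 2.24-fold lower on day 5 than on day 3 and 2.88-fold lower on day 14 than on day 2. The other probe sets of Snrpa1 were not level between days 2 and 3, with log2 ratios of -0.76 and -0.23. Its 3 probe sets all lay at least 2-fold lower on day 14 than on day 2, with log2 ratios from -2.04 to -1.15. Snrpb2, the partner of Snrpa1 in the U2 snRNP, read 887, 948, 557 and 464 on the same days. That is 1.91-fold lower on day 14 than on day 2, just short of a call, and its other measured probe set differed by only -0.06. Snrpc, a U1 protein that helps to recognise the start of the intron, read 1463, 1471, 911 and 674, or 2.17-fold lower on day 14 than on day 2. Again the signal was level over days 2 and 3 and lower on days 5 and 14.

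The Sm proteins form the ring of the snRNPs, and those measured here read lower on days 5 and 14 than on days 2 and 3. Snrpb, which encodes SmB, read 2412, 2109.8, 1255 and 1063 on days 2, 3, 5 and 14 (2.27-fold lower on day 14 than on day 2). Snrpd3 read 2903, 2909.8, 1799 and 1353, 2.15-fold lower on day 14 than on day 2. The probe sets of Snrpd3 disagreed, however: a second one, near the floor on day 2 and of a type that can detect several genes, read 52.6, 104, 108 and 176, and the mean over all probe sets of the gene gave a log2 ratio of 0.21. Snrpe, with 4232, 4431, 3468 and 2718, had the smallest difference of the family, 1.56-fold lower on day 14 than on day 2. Snrpg read 4465, 4217, 2699 and 2812, 1.59-fold lower on day 14 than on day 2, while its other probe set read 739, 523, 281 and 187, which is 3.95-fold lower. Both probe sets of Snrpg were lower on the 2 late arrays, but they differ in size by more than 1 log2 unit. The probe set of Snrpe and the representative one of Snrpg are also of the type that can detect several genes.

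SF3A and SF3B, the complexes that hold the U2 snRNP on the branch site, held the gene with the lowest ratio. On day 14, 4 of the 9 genes were called lower than on day 2: Sf3a1, Sf3a3, Sf3b5 and Sf3b6. This is 44.4%, against 14.8% of all measured genes, and none was called higher, against 22.8%. Of the 9 ratios, 7 lay below 0, and the median log2 ratio was -0.87. Under the other settings this median ran from -0.89 to -0.44. The medians of the 3 steps, in order of time, were -0.12, -0.57 and -0.17.

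Of the SF3A trimer, Sf3a3 read 1641, 875, 411 and 391 on days 2, 3, 5 and 14. It was 1.88-fold lower on day 3 than on day 2, 2.13-fold lower on day 5 than on day 3 and 4.20-fold lower on day 14 than on day 2. Its second probe set, at 85.1 on day 14 and 426 on day 2, gave a 5.01-fold lower signal. Signals on days 5 and 14 were close together. Sf3a1 read 307, 286, 182 and 145, 2.11-fold lower on day 14 than on day 2, but its second probe set had a log2 ratio of 0.31. Sf3a2 read 1002, 961, 516 and 605 and was not called (1.66-fold lower on day 14 than on day 2), and its second probe set, under the floor on day 2 at 22.3 and at 56.5 on day 14, gives only a bound of at least 1.32-fold higher.

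Within SF3B the smallest subunits and the scaffold read differently. Sf3b6, which contacts the branch site adenosine, read 1755, 2168, 1067 and 688 on days 2, 3, 5 and 14, 2.03-fold lower on day 5 than on day 3 and 2.55-fold lower on day 14 than on day 2. Its 3 measured probe sets ran from -1.67 to -0.54 for day 14 against day 2. At the single steps they disagreed. The others were level for day 5 against day 3, at 0.04 and -0.05. For day 3 against day 2 they lay at -0.92 and -0.47, where the representative probe set lay at 0.31. Sf3b5 read 1214, 1003, 675 and 489, 2.48-fold lower on day 14 than on day 2, with its other probe set not measured in that comparison. At the representative probe sets, these 2 genes were lowest on day 14 and were lower at both of the last steps. Sf3b1, the scaffold of the complex and the target of the splicing inhibitor pladienolide, read 2241, 2058, 1865 and 2306, a log2 ratio of 0.04 between days 14 and 2. Sf3b2 (630.1, 559, 499 and 528) was 1.19-fold lower on day 14 than on day 2, Sf3b3 (1032, 879, 646 and 564) 1.83-fold lower and Sf3b4 (541, 523, 641 and 569.5) 1.05-fold higher, none of them a call.

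The SR proteins were highest on day 2 in 7 of 9 genes. On day 14, 2 were called lower than on day 2 (Srsf1 and Srsf2), a share of 22.2% against 14.8% of all measured genes. None was called higher, against 22.8% of all. Of the 9 ratios, 7 lay below 0, and the family median was -0.41, from -0.43 to -0.22 under the other settings. All 9 had a lower signal on day 3 than on day 2, with a median of -0.28. For day 5 against day 3 the median was -0.09, and 0.21 with the values as deposited, so it has no direction that holds across scalings. For day 14 against day 5 it was 0.15.

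Srsf1, the founding member, which promotes recognition of the start of introns, read 2128, 1758, 1157 and 1014 on days 2, 3, 5 and 14, 2.10-fold lower on day 14 than on day 2. All 6 of its probe sets were below 0 in that comparison, from -1.91 to -0.88. Srsf2, a marker of nuclear speckles, read 1790.1, 1693, 933 and 637, 2.81-fold lower on day 14 than on day 2. Of its other probe sets, 2 were also below 0, and the last, at 54.3 on day 14 and under the floor on day 2 (23.0), gives only a bound of at least 1.26-fold higher. Srsf3, which also takes part in mRNA export, read 2156, 1518, 894 and 1140.0, 1.89-fold lower on day 14 than on day 2, and its 6 probe sets ran from -1.11 to 0.37. In all 3 genes the representative probe set read lower on days 5 and 14 than on days 2 and 3.

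Srsf4, Srsf5 and Srsf9 had their lowest signal on day 3. Srsf5 read 1931, 1194, 1262 and 2228 on days 2, 3, 5 and 14, so that day 14 was 1.77-fold above day 5 and 1.15-fold above day 2. Srsf4 had 859, 566, 708 and 876, nearly the same on days 14 and 2 (log2 ratio 0.03). Srsf9 read 1119.7, 513, 675 and 581 and was the only member called for day 3 against day 2, at 2.18-fold lower. Each of these 3 genes has a single probe set. Srsf6 (1576, 1485, 1043 and 1182) and Srsf11 (1306, 1212, 1136 and 1041) were 1.33-fold and 1.25-fold lower on day 14 than on day 2. Srsf10, which represses splicing when it is dephosphorylated, read 319.8, 291, 277 and 306, while another of its 4 probe sets read 328, 245, 112 and 106, 3.09-fold lower on day 14 than on day 2.

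The hnRNPs held genes called in both directions. On day 14, 2 of 18 were called lower than on day 2 (Hnrnpd and Hnrnpll), a share of 11.1% that is under the 14.8% of all measured genes. Hnrnpul2 was called higher (5.56%, against 22.8% of all), and 12 of 18 ratios lay below 0. The median log2 ratio was -0.25, from -0.27 to -0.09 under the other settings. For day 3 against day 2 the median was -0.22, and 15 of 18 ratios lay below 0. For day 5 against day 3 it was -0.10 (0.20 with the values as deposited), and for day 14 against day 5 it was -0.04 (0.03 with the mean over probe sets), so neither of these has a direction that holds across settings.

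Hnrnpd, whose protein AUF1 binds AU-rich elements and promotes mRNA decay, read 1284, 1049, 677 and 524 on days 2, 3, 5 and 14, 2.45-fold lower on day 14 than on day 2. Hnrnpll, known for setting Cd45 isoforms in T cells, read 1841, 1713, 1092 and 868, or 2.12-fold lower, and its second probe set lay at -0.77. Both were lower at every step than at the one before. Hnrnpul2, a relative of Hnrnpu, went the other way, with 311, 384, 473 and 757, 2.44-fold higher on day 14 than on day 2. Its second probe set read 232, 266, 184 and 205, a log2 ratio of -0.18, so the probe sets do not share the difference.

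The A and B type hnRNPs, repressors that bind many exons and introns, differed less at the representative probe set. Hnrnpa1 read 1077, 853, 739.9 and 646 on days 2, 3, 5 and 14, 1.67-fold lower on day 14 than on day 2, and its second measured probe set lay at 0.08. Hnrnpa2b1 read 4193, 3463, 3291 and 3315, 1.26-fold lower on day 14 than on day 2. Of its 4 probe sets, 1 with 233, 205, 253 and 475 was 2.04-fold higher on day 14 than on day 2. Hnrnpab was nearly level, with 4643, 4455, 4547 and 4387. That probe set has a suffix that marks cross-reacting probes, and another, with 5985, 4936, 3283 and 2677, was 2.24-fold lower on day 14 than on day 2.

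Hnrnpdl has the widest span between probe sets of the hnRNPs for day 14 against day 2. Its representative probe set read 6375, 5308, 5300.4 and 5614 on days 2, 3, 5 and 14. Another read 2744, 2017, 1412 and 1171, 2.34-fold lower on day 14 than on day 2, and yet another 328, 233, 379 and 783, 2.39-fold higher. The arrays therefore give no single course for this gene. For Hnrnpf, which binds runs of G, the representative probe set read 1647, 1209, 1374 and 1323 and was not called. That set has the suffix that marks cross-reacting probes. Another read 1954, 1476, 781 and 845, a log2 ratio of -1.21 for day 14 against day 2, and yet another lay at -1.18. All 4 probe sets of Hnrnpf lay below 0 in that comparison, and without sets of the types prone to cross-detection the gene was called lower.

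Hnrnpc, which binds runs of U in nascent transcripts, read 6572, 6168, 4649 and 4767 on days 2, 3, 5 and 14, 1.38-fold lower on day 14 than on day 2. Hnrnpk, which binds C-rich sequence, read 2844, 2269.5, 1919.8 and 2116, 1.34-fold lower. Hnrnpu, a nuclear scaffold protein, read 2942, 2337, 1391 and 1778, 1.65-fold lower on day 14 than on day 2 although day 14 was above day 5. None of these was called. Hnrnpm was 1.78-fold lower on day 14 than on day 2 and Hnrnph1 1.12-fold lower. Above 0, but short of a call, lay Hnrnpl and Hnrnpul1 (both 1.35-fold higher), Hnrnph3 (1.28-fold higher), Hnrnph2 (log2 ratio 0.14) and Hnrnpr (1.07-fold higher).

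At the level of single steps, few genes were called, and the shares called lower were close to those of all genes. On day 3, 1 of 43 genes (Srsf9, 2.33%) was called lower than on day 2, against 1.80% of all measured genes, and none was called higher, against 6.69%. On day 5, 3 genes (Snrpa1, Sf3a3 and Sf3b6, 6.98%) were called lower than on day 3, against 5.97% of all, and none higher, against 11.6%. Every measured probe set of Snrpa1 and Sf3a3 was called lower at that step, but not every one of Sf3b6. On day 14, no gene was called in either direction against day 5, where 3.10% of all genes were lower and 4.81% higher. The median log2 ratios of the 43 genes at the 3 steps were -0.14, -0.35 and -0.09, beside 0.06, 0.06 and 0.01 for all measured genes. Ratios below 0 made up 79.1%, 74.4% and 60.5% of the 43, against 44.6%, 46.5% and 49.1% of all.

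The size of the middle step depends on scaling. With the values as deposited the median was -0.32 for day 3 against day 2 and -0.05 at the next step, beside all-gene medians of -0.12 and 0.33, and no member was called lower on day 5 than on day 3. Relative to all genes, the splicing genes were lower at that step under both. Neighbouring steps have the array of day 3 or of day 5 in common and are not independent.

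**Figure D3:**
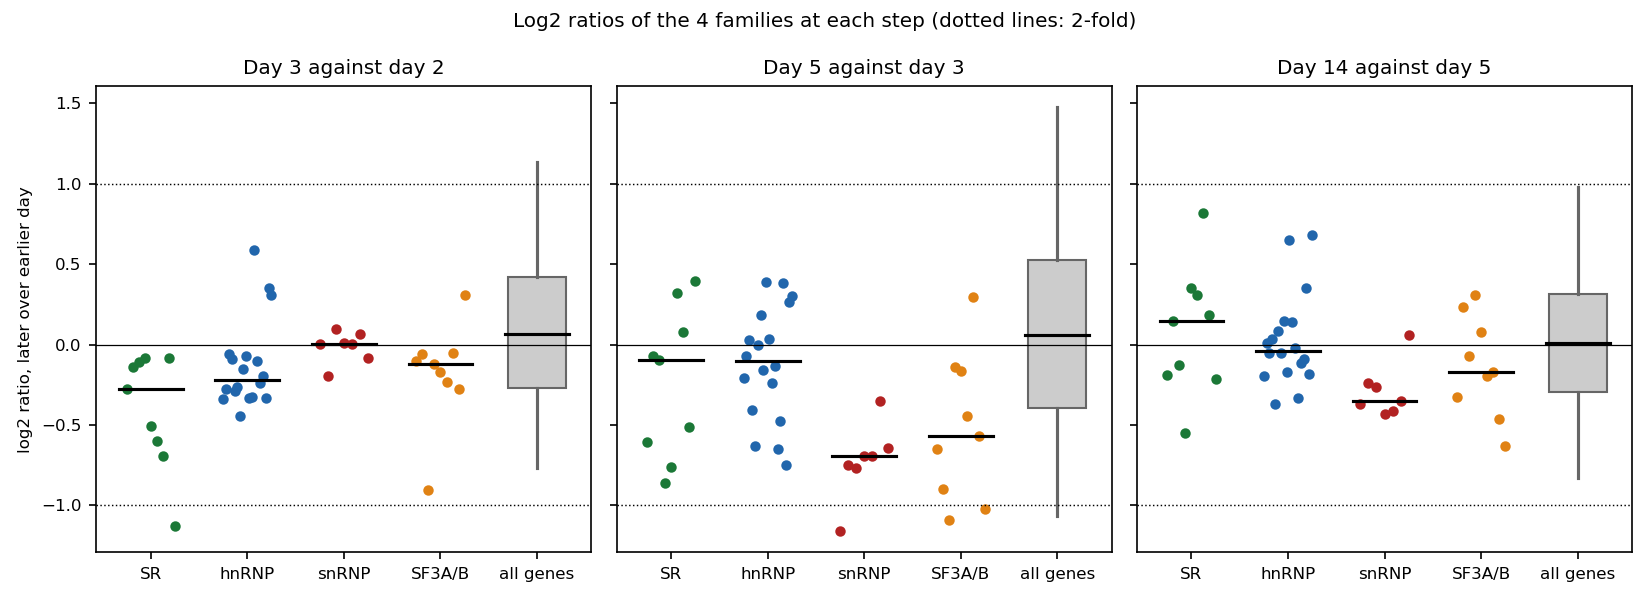
Log2 ratio (later over earlier day) of each measured gene, by family, for the 3 steps; black bars are medians, the grey box spans the 25th to 75th percentiles of all measured genes with whiskers at the 5th and 95th, and dotted lines mark 2-fold. All 7 snRNP genes lie below 0 for day 5 against day 3, with a median of -0.69, and none of the 43 genes passes 2-fold for day 14 against day 5.

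Probe sets of the same gene often disagreed, so the values above were set against every probe set. Of the 108 probe sets measured, 30 (27.8%) were called lower on day 14 than on day 2, against 14.5% of all named probe sets, and 4 were called higher, against 21.2%, with a median log2 ratio of -0.41. At the steps, 2 of 106 measured probe sets were called lower on day 3 than on day 2 (2.02% of all named probe sets) and none higher (6.16%). On day 5, 10 of 106 were lower than on day 3 (5.83%) and none higher (10.7%), and on day 14 none of 106 was lower than on day 5 (3.08%) and 2 were higher (4.57%). Among the 29 genes with at least 2 measured probe sets, 14 had all probe sets on the same side of 0 for day 14 against day 2, 12 of them below it. Probe sets of Sf3a3 and Snrpa1 were all called lower, and no other gene had this. In 13 of the 29 genes the probe sets lay over 1 log2 unit apart, and the SD between probe sets of a gene was 0.640, against 0.547 over all genes. For day 3 against day 2 it was 0.341, against 0.361 over all genes. Affymetrix gives the suffix _x_at to sets with probes that resemble other transcripts, _s_at to sets that detect several genes and _a_at to sets for several transcripts of a gene. By suffix, 2 of 14 _x_at sets (14.3%) and 7 of 17 _s_at sets (41.2%) were called lower on day 14 than on day 2. The same held for 10 of 27 _a_at sets (37.0%) and 11 of 50 plain _at sets (22.0%). The types prone to cross-detection thus lay at both ends. Among the genes called lower, the representative sets of Srsf2 and Hnrnpll end in _s_at and that of Srsf1 in _x_at.

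**Figure D4:**
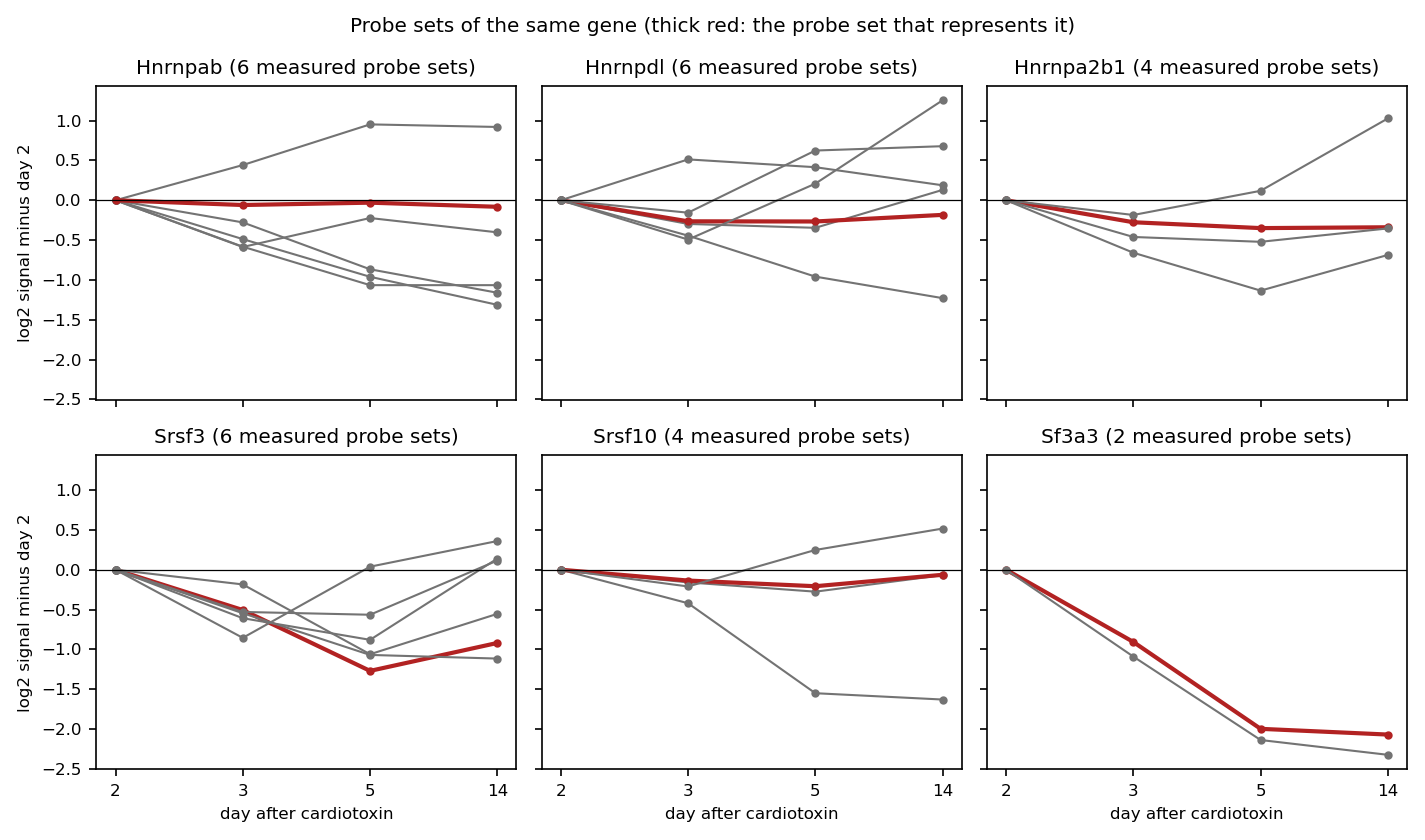
Log2 signal minus the log2 signal of day 2 (vertical axis) on days 2, 3, 5 and 14 for every measured probe set of 6 genes; the thick red line is the probe set that represents the gene. Probe sets of Hnrnpab run from -1.31 to 0.92 on day 14 and those of Hnrnpdl from -1.23 to 1.25, whereas both of Sf3a3 lie below -2.

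The rest of the splicing machinery was read from 9 lists of genes outside the 4 families. The lists that work with the snRNPs come first, for day 14 against day 2, where 14.8% of all measured genes were called lower. Of 12 measured genes for the SMN complex and snRNP assembly, 5 were called lower and none higher, all 12 were below 0, and the median log2 ratio was -0.91 (-1.09 to -0.88 under the other settings). The Lsm proteins, which form the ring of U6 and of mRNA decay complexes, had 5 of 6 called lower with a median of -1.27. Of the other U1, U2 and U2AF proteins, 4 of 16 were called lower with a median of -0.57, and of the tri-snRNP proteins 4 of 13 with a median of -0.61. The Prp19 complex and catalytic step proteins had 4 of 23 called lower (17.4%, close to the share of all genes) with a median of -0.46, and none of these lists had a gene called higher.

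The assembly genes named here form a pathway for the Sm ring. Prmt5, which methylates Sm proteins, read 1006, 681, 367 and 267 on days 2, 3, 5 and 14, 3.77-fold lower on day 14 than on day 2. Wdr77, its partner, read 1240.4, 967, 453 and 329.6, 3.76-fold lower. Ddx20, a subunit of the SMN complex, read 290.0, 139, 79.7 and 89.7, 3.23-fold lower, and Strap, another, read 2953, 2161, 1011 and 1344, 2.20-fold lower. In each of them days 5 and 14 were below days 2 and 3, but they were picked from the genes called lower and do not stand for the list.

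Beside the U2 snRNP, Phf5a, a subunit of SF3B without the family prefix, read 3025, 2204, 883 and 835 on days 2, 3, 5 and 14, 3.62-fold lower on day 14 than on day 2. Ddx46, the helicase that remodels the U2 snRNP, read 496, 338, 126 and 145 (3.43-fold lower), and U2af1, which recognises the AG at the end of the intron, 2445, 1888, 736 and 1117 (2.19-fold lower). Both of these had their lowest signal on day 5. In the tri-snRNP, Prpf31, which binds the U4 snRNA, read 1080.2, 765, 398 and 206, 5.24-fold lower on day 14 than on day 2, and Usp39 read 1649, 1186, 661 and 502, 3.28-fold lower. Lsm3 read 2182, 1618, 813 and 611, 3.57-fold lower, and Lsm4 2288, 2348, 1184 and 856, 2.67-fold lower. Every gene named in this group was picked from those called lower on day 14 than on day 2, and each also read lower on day 5 than on day 3. The lists hold ratios above 0 as well for day 14 against day 2. These were 3 of 16 other U1, U2 and U2AF genes, 3 of 13 tri-snRNP genes and 1 of 6 Lsm genes.

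Other lists hold proteins that modulate splicing. Of 25 other hnRNP-type proteins, 3 (12.0%) were called lower on day 14 than on day 2 and none higher, with a median of -0.40: Elavl1 (2.44-fold), Rbmx (2.29-fold) and Tardbp (2.19-fold). Of 14 measured SR protein kinases and SR-like factors, 1 was called lower (Scaf4) and 1 higher, with a median of 0.27 that turned to -0.11 with the mean over probe sets. The gene called higher was Clk1, a kinase that phosphorylates SR proteins, with 613, 599, 1080.1 and 1878 on days 2, 3, 5 and 14, 3.07-fold higher on day 14 than on day 2. Tra2b, an SR-like activator of exons, read 2251, 1877, 1374 and 1785 and was not called.

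**Figure D5:**
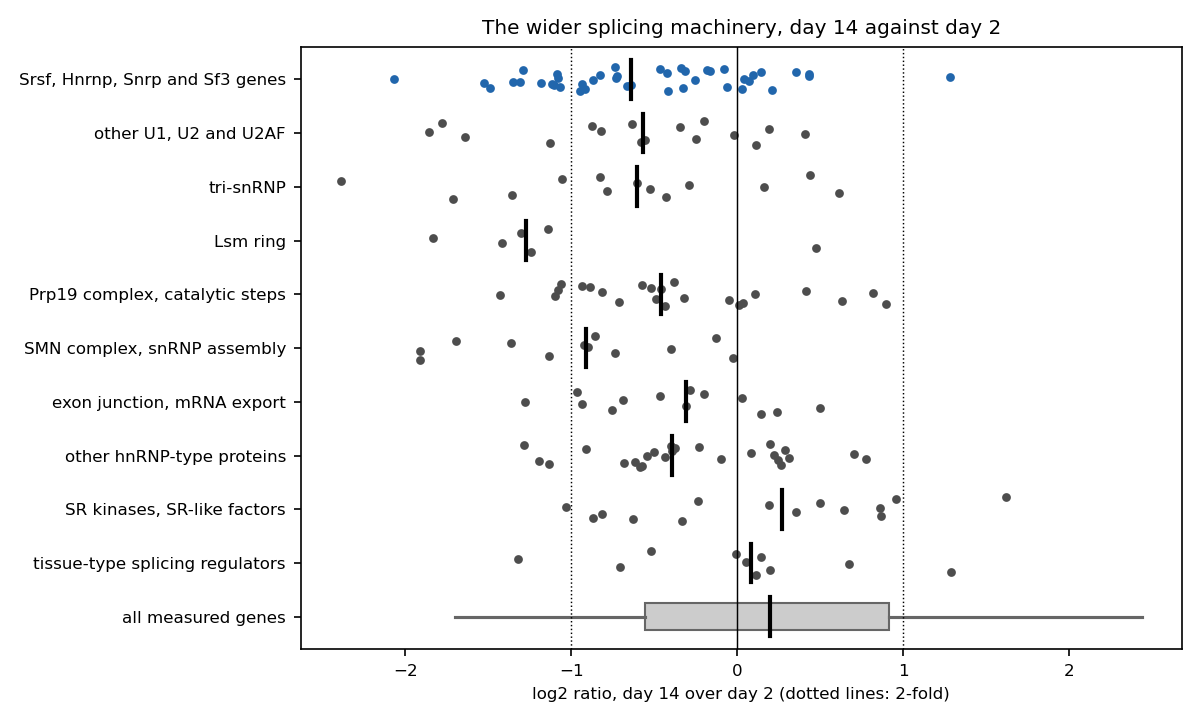
Log2 ratio of day 14 over day 2 for each measured gene of the 4 families (top row) and of 9 further lists; black bars are medians, and the grey box and whiskers give the 25th to 75th and the 5th to 95th percentiles of all measured genes. The Lsm median of -1.27 and the snRNP assembly median of -0.91 lie below the -0.64 of the 4 families, and the kinase list lies above 0 at 0.27.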

How the data were processed

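Each array has an intensity for every probe set, deposited by the authors on a linear scale and computed with MAS5, per the submitters' processing notes. The sources used here do not give a scaling target. Each array was scaled to a common 2% trimmed mean with factors of 0.997, 1.13, 0.917 and 0.976 for days 2, 3, 5 and 14. Scaled values were floored at 43.0, log2 was taken of the deposited intensities so treated, and the earlier day was subtracted. Where only 1 array was above the floor the ratio is a bound, and where neither was, the gene counts as not measured. Array number limits the precision, and with 1 array per day nothing was tested.

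Probe sets were named from the platform annotation, and the gene IDs of all 115 matched RefSeq. Values on every array are given for members called in any comparison, for the extremes of each family, for members whose probe sets lay over 1 log2 unit apart and for a fixed set of genes; of other lists, for up to 5 called genes and a fixed set. Several members are given more fully than this rule asks. Members and lists were chosen with earlier results of these data known, and Hnrnpk and the other promoters shown were chosen after values were seen. The 8 other settings changed scaling, floor, probe set choice or the fold; reading every probe set on its own was added after seeing the data. Computations used Python 3.11.15, numpy 2.4.6 and pandas 2.3.3, and were tested on simulated data.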

Additional observations from a re-analysis of the deposited data

How the results depend on the processing

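No paired analysis was possible because each day has 1 array. Of the ratios and calls of single genes under other settings, 1160 stayed within the spread between probe sets, 38 moved beyond it and 2 changed sign: Snrpd3 for day 14 against day 2 read 0.21 with the mean over probe sets, and Srsf2 read 0.34 without probe sets with the _x_at or _s_at suffix, a bound from a probe set under the floor on day 2. For the 43 genes, the median of day 14 against day 2 was -0.50 with quantile normalization, -0.33 with the mean over probe sets and -0.44 without the suffixed sets, against -0.64. With the mean over probe sets 7 genes were called lower (6 of the 12, and Snrpg) and 0 higher, in place of 12 and 1. Of the 12, 8 kept the call with quantile normalization and 10 without the suffixed sets. With quantile normalization 18.6% of the 43 were called lower, against 16.8% of all measured genes, and with the mean over probe sets 16.3%, against 11.4%. With the values as deposited, the median was -0.32 for day 3 against day 2 and -0.05 at the next step, with 2 and 0 genes called lower in place of 1 and 3. At 1.5-fold, 4 genes were lower and 1 higher on day 3 than on day 2, beside 636 lower and 1243 higher of all 6991 measured. On day 5, 16 were lower than on day 3, beside 1290 of 7523, and none was higher, beside 1725. On day 14, 1 was lower and 3 higher than on day 5, beside 792 and 942 of 7709. Against day 2, 22 were lower on day 14, beside 1862 of 7668, and 1 was higher, beside 2705. Counting every probe set on its own gave 2 lower on day 3 than on day 2, 10 lower on day 5 than on day 3 and 30 lower on day 14 than on day 2. All other settings moved no median by over 0.1 log2 and no count by over 1.5 times.

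Scaling set the balance of calls over all genes: 78.8% were higher for day 3 against day 2, and 52.6% as deposited. At the next step the shares were 66.1% and 87.4%, and at the last 60.8% and 50.6%. Quantile normalization put the all-gene median of day 14 against day 2 at 0.01 in place of 0.20. The causes of these shifts were not tested. Signals near or under the floor limit second probe sets of Srsf2, Sf3a2 and Snrpd3, and no spread between animals or labellings can be had from 1 array per day.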

Other observations

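The muscle and tissue-type splicing regulators, a list of 20 genes, had 10 measured for day 14 against day 2, with 1 called higher, 1 called lower and a median log2 ratio of 0.08. Rbm5, an RNA-binding regulator of alternative exons, read 450.1, 527, 778 and 1098 on days 2, 3, 5 and 14, 2.44-fold higher on day 14 than on day 2. Mbnl3, the muscleblind paralog that is expressed in proliferating myoblasts, read 107, 92.4, 31.6 and 8.01, at least 2.50-fold lower on day 14 than on day 2. The paralog Mbnl1, which drives adult splice forms in muscle, read 1482, 1167, 1047 and 1639 and was not called. The 2 muscleblind genes thus differ on the last array, where Mbnl1 had its highest signal and Mbnl3 its lowest.

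Rbfox1, a regulator of exons in muscle and brain, read 7.28, 48.3, 101 and 32.8, 2.09-fold higher on day 5 than on day 3 and under the floor on days 2 and 14. Rbfox2 read 93.7, 182, 198 and 149, Celf1 read 1538, 1116, 823 and 1073 and Ptbp1 read 517, 301, 356 and 383, and none of them was called in any comparison. Ptbp2, the paralog of Ptbp1, was highest on day 3 at 703 and lowest on day 5 at 364, also without a call. Srpk3, a muscle kinase of SR proteins, was above the floor only on day 3, at 56.5. Raly, an hnRNP-type protein, read 114, 294, 329 and 195, 2.58-fold higher on day 3 than on day 2.

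Of 13 measured exon junction complex and mRNA export genes, 1 was called lower on day 14 than on day 2 and none higher, with a median of -0.31. It was Rbm8a, a core subunit of the exon junction complex, with 4161, 2936, 2072 and 1716, 2.43-fold lower on day 14 than on day 2.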
